A study of Mus musculus with 6 samples.

Results

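The nuclear genes of oxidative phosphorylation were described in 3 immortalized mouse embryonic fibroblast (MEF) lines that lack different sets of clock repressors. The members were every gene of the count table whose symbol begins with Nduf followed by a, b, c, s or v, with Uqcr, with Cox followed by a digit from 4 to 8 or with Atp5, together with Sdha, Sdhb, Sdhc and Sdhd. This rule found 100 of 27179 genes, of which 76 encode structural subunits, 8 are complex I assembly factors, 9 are isoforms restricted to certain tissues or related copies, and 7 are pseudogenes or gene copies. The structural subunits fall into complex I with 36, complex II with 4, complex III with 8, complex IV with 11 and complex V with 17. No measured value entered the rule.

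All 3 lines come from C57BL/6 cells and lack PER1 and PER2, and each was grown in DMEM with 10% fetal bovine serum without synchronization of its clock before RNA was taken. Cry/Per_KO cells also lack CRY1 and CRY2, Per/Nr1d_KO cells also lack NR1D1 and NR1D2, and Cry/Per/Nr1d_KO cells lack all 6 proteins. The Cry/Per/Nr1d_KO line is a single clone made from Cry/Per_KO cells with lentiviral CRISPR and puromycin selection, so the effect of a protein cannot be told apart from a difference between cell lines. Each line gave 2 libraries, which the methods call separate RNA preparations and the results separate experiments, and whether the cultures were separate is not stated, so p-values may measure technical spread only.

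The genotype given for a library and the name of its deposited counts disagree for the Cry/Per_KO and Cry/Per/Nr1d_KO lines, where each pair bears the other line's name. Groups follow the genotype, and such libraries are named below by their label, as the Cry/Per_KO-labelled and the Cry/Per/Nr1d_KO-labelled pair. If the labels were exchanged, the comparison between these pairs would turn its sign, and each comparison with Per/Nr1d_KO would take the place of the other. The RNA of the 6 mutated genes was at 1004 normalized counts or more in every library, so none is absent. Cry1, whose transcription NR1D proteins are known to repress, had 5323 and 5478 normalized counts in the Cry/Per_KO-labelled pair against 1698 and 1724 in the Cry/Per/Nr1d_KO-labelled pair. Nr1d1, which has an NR1D site of its own, had 9337 and 9249 against 3158 and 3146. Both were thus lower in the pair labelled as lacking the repressor, which goes against the labels and with the names of the deposited counts. The other mutated genes Nr1d2, Per1 and Per2 were also lower in that pair. Nr1d2 had 8262 and 8008 in the Cry/Per_KO-labelled pair against 4881 and 5506, Per1 5644 and 5793 against 3066 and 3062, and Per2 6633 and 6838 against 4866 and 4999. Nr1d1 had 5359 and 4838 in Per/Nr1d_KO, between the labelled pairs. The labels were kept for naming only, and every direction below between these pairs, or between one of them and Per/Nr1d_KO, carries this doubt. Totals ran from 53764390 to 85927236 counts per library, and the members took between 0.813% and 0.939% of them. Of 8 fibroblast markers, 7 passed the filter on low counts and Thy1 was at or near 0 in every library, while of 16 markers of epithelial, endothelial, hematopoietic, adipocyte and neuronal cells only Cd68 and Tubb3 passed it. Some markers differed widely between the Cry/Per_KO-labelled pair, the Cry/Per/Nr1d_KO-labelled pair and Per/Nr1d_KO, in this order. Tubb3 had 359 and 356, 1959 and 1776, and 676 and 664 normalized counts, and Cd68 141 and 161, 131 and 109, and 276 and 258. Col3a1, a fibroblast marker, had 289 and 296, 836 and 801, and 42810 and 43797. What these differences mean for the members was not tested.

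Oxidative phosphorylation passes electrons from NADH through complex I, or from succinate through complex II, to complex III, cytochrome c and complex IV, and complex V uses the resulting proton gradient to make ATP. Complexes I, III, IV and V join nuclear subunits with subunits encoded by mitochondrial DNA, while complex II is nuclear throughout. Subunits are assembled in fixed ratios, and their genes lie scattered over nearly all chromosomes. Nuclear respiratory factor 1 (NRF1), ETS family factors and YY1 are known to bind many of their promoters.

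A gene was tested where its mean reached 100 normalized counts, which left 84 of the 100 members and 11934 genes in all. A log2 fold change is given with its standard error, and adjusted p-values are those of edgeR's quasi-likelihood test over all genes tested. A gene was called at an adjusted p under 0.05 with a change of more than 1.75-fold, which is 0.81 on the log2 scale, and counts at the adjusted p alone are given beside it.

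Few members passed the limit on the fold in any of the 3 comparisons. Between the Cry/Per_KO-labelled and Cry/Per/Nr1d_KO-labelled pairs, 3 of 84 tested members (3.57%) were called, all lower in the former, against 16.8% of all genes tested (7.86% higher and 8.95% lower). Between Per/Nr1d_KO and the Cry/Per/Nr1d_KO-labelled pair, 1 of 84 (1.19%) was called, as lower, against 20.7% of all genes (11.3% higher and 9.35% lower). Between Per/Nr1d_KO and the Cry/Per_KO-labelled pair, 6 of 84 (7.14%) were called, 4 higher and 2 lower, against 29.0% of all genes (15.2% higher and 13.8% lower). The median size of the change among tested members was 0.24, 0.22 and 0.30 on the log2 scale over these comparisons, beside 0.34, 0.34 and 0.46 for all genes tested.

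Small changes were common. At the adjusted p alone, 55 of 84 tested members changed between the Cry/Per_KO-labelled and Cry/Per/Nr1d_KO-labelled pairs, with 15 higher and 40 lower in the former, against a background of 76.4% of genes (38.1% higher and 38.3% lower). In Per/Nr1d_KO against the Cry/Per/Nr1d_KO-labelled pair, 34 were higher and 24 lower, against 75.8% of genes (38.7% higher and 37.1% lower). In Per/Nr1d_KO against the Cry/Per_KO-labelled pair, 42 were higher and 16 lower, against 82.1% of genes (42.8% higher and 39.3% lower). The median log2 fold change of tested members was -0.15, 0.07 and 0.17 in these comparisons, beside -0.00, 0.01 and 0.03 for all genes tested. The 3 comparisons share libraries, so a member that stands low in one line appears in more than one of them.

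**Figure D1:**
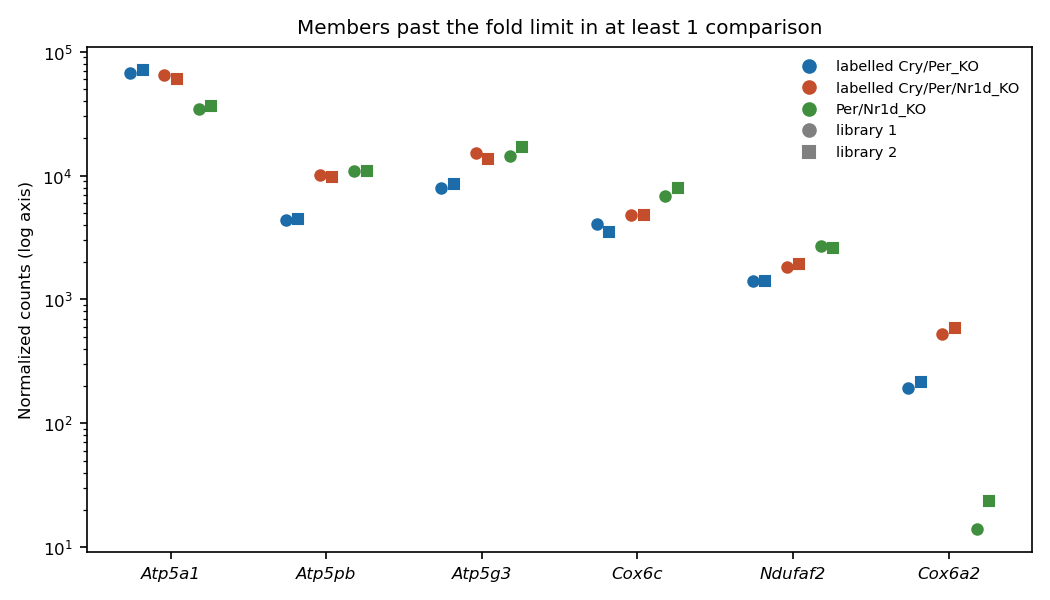
Normalized counts on a log axis for the 6 members past the fold limit in at least 1 comparison, with one point for each of 2 libraries of a line (circle and square). The libraries of each line lie close together, and Cox6a2 spans from 13.9 to 584 while the other members stay within a few fold.

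The widest change was in an isoform gene of complex IV. Cox6a2 (Entrez Gene 12862, chromosome 7 of GRCm38, from 128205435 to 128206366) encodes the form of subunit 6A that is typical of heart and skeletal muscle. It had 194 and 214 normalized counts in the Cry/Per_KO-labelled pair, 526 and 584 in the Cry/Per/Nr1d_KO-labelled pair, and 13.9 and 23.7 in Per/Nr1d_KO. The libraries of the 3 lines did not overlap, and Per/Nr1d_KO stood lowest. Cox6a2 was lower in the Cry/Per_KO-labelled pair than in the Cry/Per/Nr1d_KO-labelled pair by a log2 fold change of -1.44 ± 0.12 (adjusted p = 3.1e-08). In Per/Nr1d_KO it was lower by -4.79 ± 0.18 against the Cry/Per/Nr1d_KO-labelled pair (adjusted p = 1.3e-12) and by -3.35 ± 0.21 against the Cry/Per_KO-labelled pair (adjusted p = 5.1e-10). The median of the other tested genes of chromosome 7 moved by -0.26, -0.11 and 0.16 in these comparisons.

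Markers of muscle were low. Of the 5 markers, Myod1, Myog, Ckm and Actn2 had at most 4.45 normalized counts in any library, and none of the 5 passed the filter. Des, an intermediate filament gene of muscle, had 30.1 and 25.5 normalized counts in the Cry/Per_KO-labelled pair, 82.6 and 74.4 in the Cry/Per/Nr1d_KO-labelled pair, and 110 and 91.5 in Per/Nr1d_KO. The summed level of the list ran from 29.5 to 34.5, from 77.7 to 82.6 and from 93.9 to 112 in these lines, so it was lower in the Cry/Per_KO-labelled than in the Cry/Per/Nr1d_KO-labelled pair, as Cox6a2 was, and highest in Per/Nr1d_KO, where Cox6a2 was lowest. The part of muscle-type cells in the Cox6a2 values was not tested.

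Of the 4 structural subunits called in any comparison, 3 belong to complex V, the ATP synthase. Of its 15 tested subunits, 2 (13.3%), 0 and 3 (20.0%) were called in the 3 comparisons, beside 16.8%, 20.7% and 29.0% of all genes tested. Atp5pb (Entrez Gene 11950, chromosome 3, from 105942698 to 105959263), subunit b of the peripheral stalk that holds the catalytic head still, had 4390 and 4451 normalized counts in the Cry/Per_KO-labelled pair, 10008 and 9721 in the Cry/Per/Nr1d_KO-labelled pair, and 10878 and 10828 in Per/Nr1d_KO. Its level in the Cry/Per_KO-labelled pair differed from that of the Cry/Per/Nr1d_KO-labelled pair by a log2 fold change of -1.16 ± 0.04 (adjusted p = 5.8e-12). Per/Nr1d_KO exceeded the Cry/Per_KO-labelled pair by 1.30 ± 0.04 (adjusted p = 3.2e-13). Over the other genes tested on chromosome 3 the medians were -0.65 and 0.88 in the same comparisons, so Atp5pb moved further than its chromosome. Of the 50-base stretches of its transcript, 38.7% also occur in other genes, mostly in Gm12231, and its counts depend on how such reads were assigned.

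Atp5g3 (Entrez Gene 228033, chromosome 2, from 73908447 to 73912464), one of 3 genes that encode subunit c of the membrane rotor ring, was also lowest in the Cry/Per_KO-labelled pair. It had 7869 and 8529 normalized counts there, 15112 and 13611 in the Cry/Per/Nr1d_KO-labelled pair, and 14324 and 16907 in Per/Nr1d_KO. The log2 fold change between the Cry/Per_KO-labelled and Cry/Per/Nr1d_KO-labelled pairs was -0.81 ± 0.07 (adjusted p = 6.4e-08), at the limit on the fold. Per/Nr1d_KO exceeded the Cry/Per_KO-labelled pair by 0.93 ± 0.07 (adjusted p = 6.5e-09). The first of these calls was lost without replicate 1 of the Cry/Per_KO-labelled pair (-0.75) or of the Cry/Per/Nr1d_KO-labelled pair (-0.73), and the second without replicate 2 of Per/Nr1d_KO (0.81). Chromosome 2 had medians of -0.19 and 0.07, and no 50-base stretch of Atp5g3 was shared with another gene.

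Atp5a1 (Entrez Gene 11946, chromosome 18, from 77773768 to 77782869), the alpha subunit of the catalytic head, was lowest in Per/Nr1d_KO. Its normalized counts were 67522 and 71118 in the Cry/Per_KO-labelled pair, 64647 and 59688 in the Cry/Per/Nr1d_KO-labelled pair, and 34718 and 36463 in Per/Nr1d_KO. The fall was -0.96 ± 0.05 against the Cry/Per_KO-labelled pair (adjusted p = 6.9e-11). Against the Cry/Per/Nr1d_KO-labelled pair it was -0.80 ± 0.05 (adjusted p = 8.7e-10), just inside the limit on the fold, and it passed this limit without replicate 2 of those libraries (-0.86) or of Per/Nr1d_KO (-0.85). Chromosome 18 had medians of -0.45 and -0.21.

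Atp5b, the catalytic beta subunit that pairs with the alpha subunit, had the highest level per kilobase of transcript of all structural subunits, with 61456 and 64556 normalized counts per kilobase in the Cry/Per_KO-labelled pair, 81943 and 76491 in the Cry/Per/Nr1d_KO-labelled pair, and 61828 and 64048 in Per/Nr1d_KO. It was higher in the Cry/Per/Nr1d_KO-labelled pair than in the other lines, with a log2 fold change of -0.33 ± 0.05 in either comparison (adjusted p = 2.2e-05 for the Cry/Per_KO-labelled pair and 1.9e-05 for Per/Nr1d_KO). Atp5c1, the gamma subunit of the central shaft, had -0.40 and -0.36 in the same comparisons. Alpha and beta RNA thus stood in different proportions in the lines. The ratio of Atp5a1 to Atp5b per kilobase was 0.445 and 0.446 in the Cry/Per_KO-labelled pair, 0.319 and 0.316 in the Cry/Per/Nr1d_KO-labelled pair, and 0.227 and 0.230 in Per/Nr1d_KO. The ratio of Atp5pb to Atp5h, another stalk subunit, was 0.626 and 0.641, then 1.76 and 1.71, then 1.66 and 1.83 line by line, that is, for the Cry/Per_KO-labelled, the Cry/Per/Nr1d_KO-labelled and the Per/Nr1d_KO libraries, an order kept in every such list. Of the 50-base stretches of Atp5h, 50.5% also occur in other genes, so this ratio depends on read assignment for both subunits. Across 15 tested subunits of complex V the medians were -0.27, 0.04 and 0.10, and 3 of them (20.0%) were called in Per/Nr1d_KO against the Cry/Per_KO-labelled pair, where 29.0% of all genes were.

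In complex IV, which reduces oxygen, Cox6c (Entrez Gene 12864, chromosome 15, from 35931976 to 35938246), a small accessory subunit, was called as higher in Per/Nr1d_KO. It had 4046 and 3523 normalized counts in the Cry/Per_KO-labelled pair, 4792 and 4814 in the Cry/Per/Nr1d_KO-labelled pair, and 6847 and 7935 in Per/Nr1d_KO. The log2 fold change against the Cry/Per_KO-labelled pair was 0.97 ± 0.07 (adjusted p = 3.9e-09), beside a median of 0.35 for chromosome 15. Of 9 tested structural subunits of complex IV, 7 were higher and 1 lower in Per/Nr1d_KO than in the Cry/Per_KO-labelled pair at the adjusted p alone, with a median of 0.37, where 42.8% of all genes were higher and 39.3% lower. The one that was lower was Cox5a, a matrix-side subunit on chromosome 9, at -0.39, where the chromosome had -0.84. Its partner Cox5b on chromosome 1 was higher by 0.55, and the ratio of Cox5a to Cox5b per kilobase was 7.92 and 6.96 in the Cry/Per_KO-labelled pair, 7.05 and 7.08 in the Cry/Per/Nr1d_KO-labelled pair, and 3.44 and 4.27 in Per/Nr1d_KO. Cox4i1, the most abundant of the complex per kilobase, ran from 24976 to 34757 normalized counts per kilobase over the 6 libraries.

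Complex I, the largest complex, had all of its 36 structural subunits tested and none past the limit on the fold. In Per/Nr1d_KO against the Cry/Per/Nr1d_KO-labelled pair, Ndufa12 passed this limit without replicate 1 of the latter and Ndufs4 (0.82) without replicate 1 of the former. At the adjusted p alone, 5 were higher and 15 lower in the Cry/Per_KO-labelled pair than in the Cry/Per/Nr1d_KO-labelled pair, with a median of -0.12. In Per/Nr1d_KO, 19 were higher and 6 lower against the Cry/Per/Nr1d_KO-labelled pair, with a median of 0.15, and 22 were higher and 3 lower against the Cry/Per_KO-labelled pair, with a median of 0.28. These are 55.6%, 69.4% and 69.4% of the subunits, beside 76.4%, 75.8% and 82.1% of all genes. Among the 7 core subunits, which carry the flavin and iron-sulphur centres, 6 were higher and none lower in Per/Nr1d_KO than in the Cry/Per_KO-labelled pair, where 42.8% of all genes were higher and 39.3% lower. Ndufa7, an accessory subunit, had the highest mean level per kilobase of the complex over the 6 libraries, between 9825 and 13782 normalized counts per kilobase, though the core subunit Ndufv2 was above it in the Cry/Per/Nr1d_KO-labelled pair, at 11162 and 11418 against 11132 and 9825.

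Accessory subunits of complex I moved by unequal amounts and in either direction. Ndufa10 had 7469 and 7585 normalized counts in the Cry/Per_KO-labelled pair, 8474 and 8466 in the Cry/Per/Nr1d_KO-labelled pair, and 5344 and 5092 in Per/Nr1d_KO. It was lower in Per/Nr1d_KO by -0.70 ± 0.05 against the Cry/Per/Nr1d_KO-labelled pair (adjusted p = 1.2e-09) although the median of chromosome 1 was 0.28. Ndufs4, known from its loss in Leigh syndrome, had 3994 and 4069, then 3193 and 2887, then 4690 and 5355 normalized counts line by line, a rise of 0.73 ± 0.06 in Per/Nr1d_KO against the Cry/Per/Nr1d_KO-labelled pair (adjusted p = 6.3e-08). Ndufv3, a subunit of the NADH-binding module, was lowest in the Cry/Per/Nr1d_KO-labelled pair, with 2380 and 2259 normalized counts, against 3258 and 3474 in the Cry/Per_KO-labelled pair and 3659 and 3406 in Per/Nr1d_KO. Ndufa12 had the opposite order, with 751 and 968 in the Cry/Per/Nr1d_KO-labelled pair against 572 and 543 and against 565 and 490, and 53.8% of its 50-base stretches are shared with other genes. Ndufb9 rose by 0.62 ± 0.05 in Per/Nr1d_KO against the Cry/Per_KO-labelled pair (adjusted p = 1.1e-08), from 5400 and 5583 to 8210 and 8673 normalized counts, with 7801 and 7321 in the Cry/Per/Nr1d_KO-labelled pair. The normalized counts of Ndufb2 were 1475 and 1679, 1500 and 1419, and 1735 and 2137 line by line. It was higher in Per/Nr1d_KO than in the Cry/Per_KO-labelled pair by 0.30, where chromosome 6 had a median of -0.41, and did not pass the test without replicate 2 of Per/Nr1d_KO (0.14).

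The assembly factors, which build complex I without staying in it, moved in either direction. Ndufaf2 (Entrez Gene 75597, chromosome 13, from 108052589 to 108158652), which acts late in assembly, had 1415 and 1410 normalized counts in the Cry/Per_KO-labelled pair, 1812 and 1932 in the Cry/Per/Nr1d_KO-labelled pair, and 2695 and 2589 in Per/Nr1d_KO. Per/Nr1d_KO exceeded the Cry/Per_KO-labelled pair by 0.90 ± 0.06 (adjusted p = 1.4e-09). Ndufaf4 was highest in the Cry/Per/Nr1d_KO-labelled pair, with 3955 and 4154 normalized counts against 2463 and 2534 in the Cry/Per_KO-labelled pair and 2472 and 2610 in Per/Nr1d_KO. Its partner Ndufaf3 was lowest there, with 305 and 268 against 473 and 515 and against 371 and 424. Ndufaf4 thus had -0.70 ± 0.05 and Ndufaf3 0.78 ± 0.11 between the Cry/Per_KO-labelled and Cry/Per/Nr1d_KO-labelled pairs (adjusted p = 1.5e-08 and 8.6e-06). Ndufaf3 passed the limit on the fold without replicate 1 of the Cry/Per_KO-labelled pair (0.84) or of the Cry/Per/Nr1d_KO-labelled pair (0.89). Of the 8 factors, 3 were higher and 3 lower in Per/Nr1d_KO than in the Cry/Per_KO-labelled pair at the adjusted p alone, and 1 passed the limit on the fold, beside 82.1% and 29.0% of all genes.

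Complexes II and III showed how subunits of one enzyme can move apart. Succinate dehydrogenase, complex II, is also part of the tricarboxylic acid cycle. Its flavoprotein Sdha had 22043 and 22634 normalized counts in the Cry/Per_KO-labelled pair, 17298 and 16106 in the Cry/Per/Nr1d_KO-labelled pair, and 18466 and 19183 in Per/Nr1d_KO. Its iron-sulphur protein Sdhb had 8475 and 8995, 9670 and 8740, and 7856 and 8159 line by line, and its membrane anchor Sdhc had 6558 and 6750, 6702 and 5953, and 8462 and 9281. The ratio of Sdha to Sdhb per kilobase was 1.02 and 0.991, 0.704 and 0.726, and 0.926 and 0.926, and that of Sdhc to Sdhb was 0.279 and 0.270, 0.25 and 0.245, and 0.388 and 0.410. Sdha was thus highest against Sdhb in the Cry/Per_KO-labelled pair, and Sdhc in Per/Nr1d_KO.

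In complex III, the cytochrome bc1 complex, the core proteins Uqcrc1 and Uqcrc2 went in opposite directions in the comparisons with the Cry/Per_KO-labelled pair. Uqcrc1 had 13503 and 14503 normalized counts in the Cry/Per_KO-labelled pair, 13015 and 11734 in the Cry/Per/Nr1d_KO-labelled pair, and 8513 and 8641 in Per/Nr1d_KO, a fall of -0.71 ± 0.05 in Per/Nr1d_KO against the Cry/Per_KO-labelled pair (adjusted p = 6.1e-09). Uqcrc2 had 5657 and 5639, 8689 and 8763, and 7236 and 7787 normalized counts, and was lower by -0.63 ± 0.05 in the Cry/Per_KO-labelled pair than in the Cry/Per/Nr1d_KO-labelled pair (adjusted p = 1.1e-08). Between the labelled pairs Uqcrc1 had 0.18, which did not pass the test without replicate 2 of the Cry/Per_KO-labelled pair (0.13) or of the Cry/Per/Nr1d_KO-labelled pair (0.11), and in Per/Nr1d_KO against the Cry/Per_KO-labelled pair Uqcrc2 had 0.41. Against the Cry/Per/Nr1d_KO-labelled pair both were lower in Per/Nr1d_KO, at -0.53 and -0.21. Their ratio per kilobase was 2.74 and 2.95, 1.72 and 1.54, and 1.35 and 1.27 line by line. Uqcr10, a small subunit, was low in the Cry/Per_KO-labelled pair, with 2679 and 2980 normalized counts against 4604 and 4044 and against 4075 and 4706. Uqcrh, the hinge subunit, had the highest mean level per kilobase of the complex over the 6 libraries, between 8377 and 12097, though Uqcr10 was above it in Per/Nr1d_KO, at 9389 and 10843 against 8377 and 8958.

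**Figure D2:**
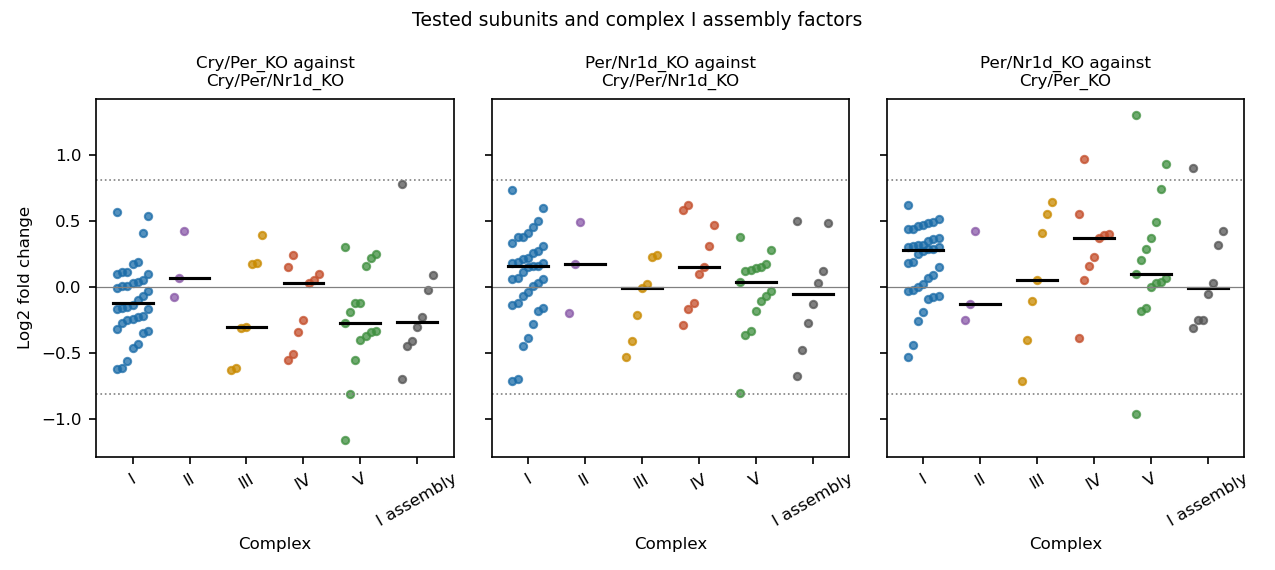
Log2 fold changes of the tested structural subunits by complex and of complex I assembly factors, in 3 comparisons, with bars at the group medians and dotted lines at the limit on the fold of 0.81. Most points lie between the dotted lines, and those of complex V reach furthest, from -0.96 to 1.30 in Per/Nr1d_KO against the Cry/Per_KO-labelled pair.

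Whole chromosomes stood apart between these lines, and subunits were compared with the median log2 fold change of the other tested genes of their chromosome. A chromosome was called shifted where this median lay beyond 0.25 in either direction. Between the Cry/Per_KO-labelled and Cry/Per/Nr1d_KO-labelled pairs, 25 of 70 tested structural subunits lay on shifted chromosomes and 23 of these (92.0%) had the sign of their chromosome, beside 78.2% of the other genes there. In Per/Nr1d_KO, 7 of 8 (87.5%) had it against the Cry/Per/Nr1d_KO-labelled pair, beside 77.4% of other genes, and 17 of 20 (85.0%) against the Cry/Per_KO-labelled pair, beside 79.0%. The SD of the subunits' log2 fold changes went from 0.326 to 0.254, from 0.321 to 0.286 and from 0.375 to 0.309 when the chromosome's median was subtracted. This left 60.4%, 79.8% and 67.8% of their variance, where 95.4%, 98.4% and 95.8% was left for the other genes, whose SD was far wider and went from 1.07 to 1.05, from 1.51 to 1.49 and from 1.80 to 1.76. The percentages start from unequal spreads and do not show that subunits followed their chromosome more closely than other genes. On shifted chromosomes 15 of 25, 5 of 8 and 13 of 20 subunits lay closer to their chromosome than to 0. Over all 84 tested members, with isoforms, assembly factors and copies, 73.5%, 93.1% and 92.0% was left. Pearson's r between a subunit's log2 fold change and its chromosome's median was 0.64, 0.46 and 0.60 over 70 subunits and 0.53, 0.26 and 0.35 over the 84 members, which share chromosomes and libraries and are given without a test.

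The complexes differed in how much of the spread went with the chromosome. In complex II the SD over 3 subunits went from 0.25 to 0.13, from 0.34 to 0.14 and from 0.35 to 0.14 in the 3 comparisons. In complex III it went from 0.41 to 0.21, from 0.30 to 0.16 and from 0.51 to 0.32 over 7 subunits. In complex IV it went from 0.30 to 0.22, from 0.34 to 0.25 and from 0.37 to 0.24 over 9, and in complex V from 0.40 to 0.25, from 0.30 to 0.25 and from 0.53 to 0.35 over 15. In complex I, over 36 subunits, it went from 0.28 to 0.25 between the labelled pairs, but from 0.32 to 0.33 and from 0.27 to 0.31 in the comparisons of Per/Nr1d_KO. Subunits of one complex thus moved by unequal amounts, and in complexes II to V they differed less once each was set against its chromosome.

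Members of chromosomes 13, 3 and 9 lay at unequal distances from their chromosome. On chromosome 13, at 0.35 between the Cry/Per_KO-labelled and Cry/Per/Nr1d_KO-labelled pairs, Sdha had 0.42, Ndufs4 0.41, Ndufs6 0.57 and Uqcrfs1, the Rieske iron-sulphur protein, 0.39, while Uqcrb, a small subunit of complex III, had 0.17 (adjusted p = 0.085), which became 0.32 and passed the test without replicate 1 of the Cry/Per_KO-labelled pair and became 0.01 without replicate 2. The assembly factor Ndufaf2 on the same chromosome had -0.41, and the pseudogene Atp5c1-ps -0.30, which did not pass the test without replicate 1 of either labelled pair (-0.19 and -0.21). Of the 7 tested members there, 5 had the sign of the chromosome. On chromosome 3, at -0.65 in this comparison and 0.88 in Per/Nr1d_KO against the Cry/Per_KO-labelled pair, Atp5pb exceeded the median in size, whereas the complex I subunits Ndufb5 and Ndufc1 had -0.16 and -0.22 in the former and 0.37 and 0.44 in the latter. Ndufb5 no longer passed the test in the former without replicate 1 of either labelled pair (-0.12 and -0.10), nor did Ndufc1 without that of Cry/Per_KO (-0.17). On chromosome 9, at -0.84 in the latter comparison, Uqcrc1 had -0.71, Cox5a -0.39 and Ndufaf3 -0.31, which did not pass the test without replicate 2 of the Cry/Per_KO-labelled pair (-0.24) or replicate 1 of Per/Nr1d_KO (-0.22). The tested members farthest from their chromosome, apart from Cox6a2, were Ndufs6b, Ndufaf4, Ndufaf2 and Ndufv3 in the comparison of the labelled pairs, Ndufa10, Ndufaf3, Ndufa12 and Ndufv3 in Per/Nr1d_KO against the Cry/Per/Nr1d_KO-labelled pair, and Ndufaf2, Atp5g3, Ndufa10 and Ndufb2 against the Cry/Per_KO-labelled pair. Ndufs6b is a pseudogene in RefSeq whose normalized counts were 569 and 595, 401 and 337, and 436 and 595 line by line, and its most shared gene is Ndufs6.

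**Figure D3:**
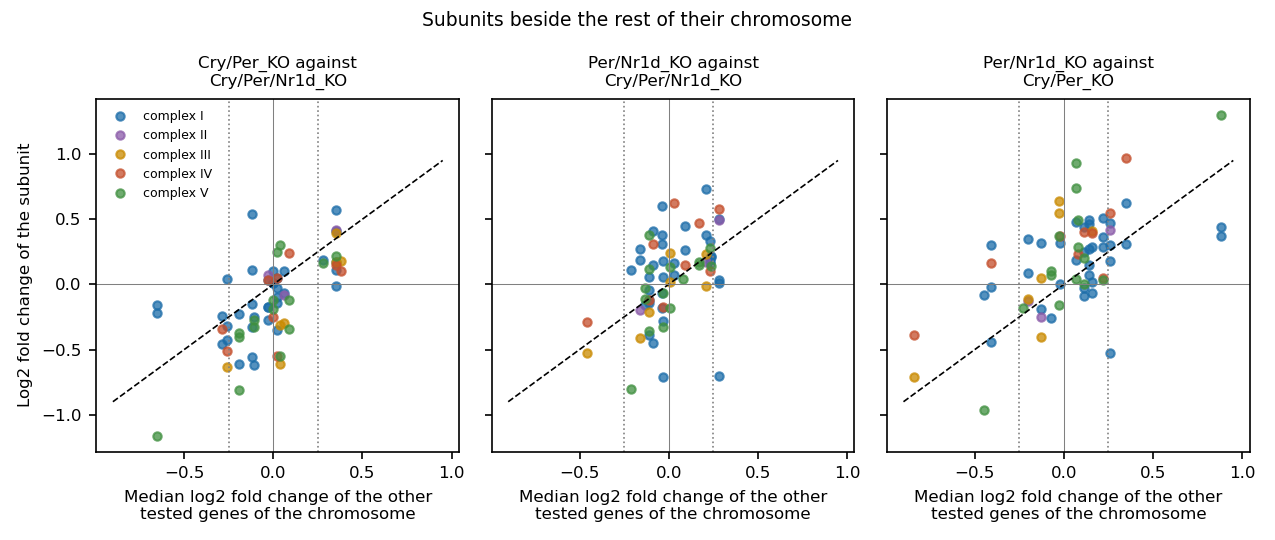
Log2 fold change of each of 70 tested structural subunits against the median of the other tested genes of its chromosome, in 3 comparisons, coloured by complex; the dashed line marks equality and the dotted lines the limit of 0.25 for a shifted chromosome. Points lie along the dashed line with a wide scatter, and r is 0.64, 0.46 and 0.60 from left to right.

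Isoform pairs were compared as shares of counts per kilobase within a subunit. Cox6a1, the general form of subunit 6A, held nearly all of it, and Cox6a2 held 1.16% and 1.19% in the Cry/Per_KO-labelled pair, 3.41% and 3.94% in the Cry/Per/Nr1d_KO-labelled pair, and 0.0674% and 0.120% in Per/Nr1d_KO. Cox6a1 itself had 13908 and 14948, 12484 and 11944, and 17371 and 16556 normalized counts line by line, a rise of 0.47 ± 0.05 in Per/Nr1d_KO against the Cry/Per/Nr1d_KO-labelled pair (adjusted p = 2.9e-07). Cox6b2, the testis form of subunit 6B, was detected mainly in Per/Nr1d_KO, with 52 and 73 counts against 0 and 1 in the Cry/Per_KO-labelled pair and 5 and 2 in the Cry/Per/Nr1d_KO-labelled pair. It held 1.57% and 1.38% of subunit 6B in Per/Nr1d_KO and at most 0.0966% elsewhere. These values did not overlap between Per/Nr1d_KO and the other lines, and Cox6b2 fell below the filter for testing.

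Most other isoforms were low. Cox7a1, the muscle form of subunit 7A, had 56 and 50 counts in the Cry/Per_KO-labelled pair, 26 and 27 in the Cry/Per/Nr1d_KO-labelled pair, and 17 and 21 in Per/Nr1d_KO. Cox7a2l, a related factor that joins complexes into supercomplexes, was well above the filter. It had 4672 and 4073, 3678 and 4359, and 3279 and 3144 normalized counts, and was lower by -0.45 ± 0.08 in Per/Nr1d_KO than in the Cry/Per_KO-labelled pair (adjusted p = 6.2e-05). Ndufa4l2, a hypoxia-induced relative of Ndufa4, had between 16 and 23 counts in every library, and Ndufa4 held 99.8% or more of that pair. Cox4i2, the lung form of subunit 4, had at most 3 counts in any library, Cox8b at most 4, and Cox7b2 and Cox8c had none, which allows up to 3 counts in a library. Among the genes of subunit c, Atp5g3 held between 97.6% and 98.6%, but 66.0% of the 50-base stretches of Atp5g1 and 87.4% of those of Atp5g2 are shared with other genes, so the small shares of these genes cannot be read as levels.

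**Figure D4:**
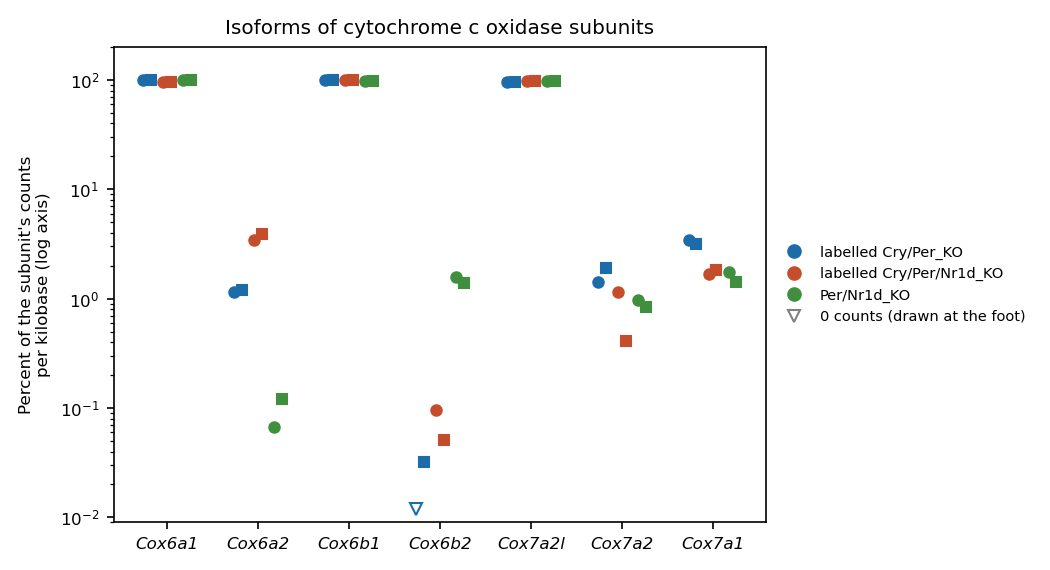
Share of a subunit's counts per kilobase, in percent on a log axis, for general and restricted isoforms of subunits 6A, 6B and 7A in each of 6 libraries (circle and square for the libraries of a line). Cox6a2 is lowest and Cox6b2 highest in Per/Nr1d_KO, and Cox6a1, Cox6b1 and the related Cox7a2l stay near the top of the axis. Cox7a2, the general form of subunit 7A, lies between 0.407% and 1.91%, but its counts are very low for reasons that were not tested, so its share cannot be read as a level.

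Some structural subunits had very low counts. Of the 16 members that were not tested, 6 are structural subunits. Uqcr11 had between 0 and 2 counts per library, Sdhd between 5 and 16, Cox7a2 between 10 and 51, Atp5l between 15 and 36, Atp5g2 between 36 and 85, and Cox7c between 39 and 90. Of the 50-base stretches of their transcripts, which is the read length, 87.4% in Atp5g2, 84.8% in Atp5l and 53.0% in Cox7c occur in other genes, most of them pseudogenes. Sdhd and Cox7a2 share none and Uqcr11 shares 10.9%, so this measure does not cover them. Over the 14 structural subunits with a mean under 1000 the median share was 38.8%, against 1.33% over the 62 with a higher mean. The part of shared stretches in these counts was not tested. The other members not tested were 7 isoforms and 3 pseudogenes or gene copies.

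**Figure D5:**
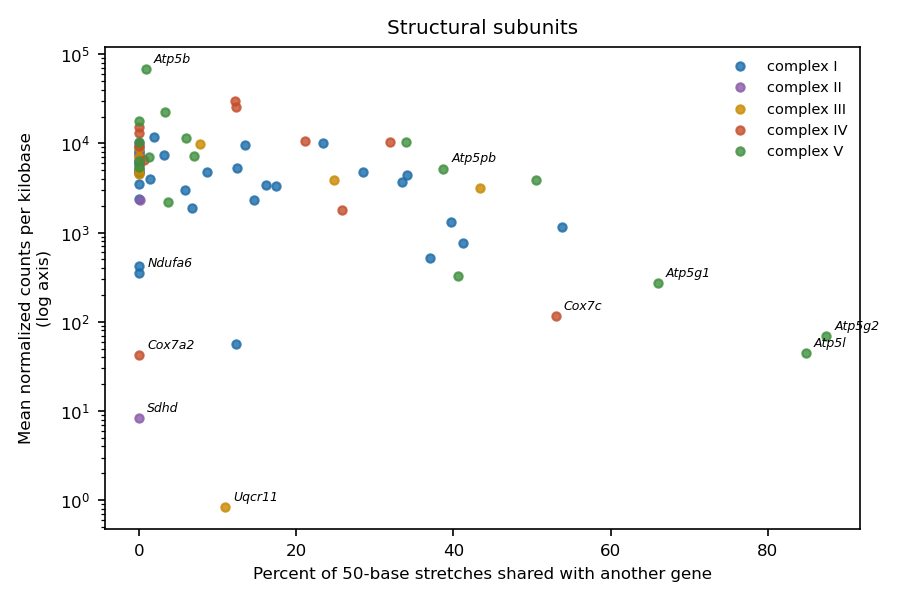
Mean normalized counts per kilobase on a log axis against the percentage of 50-base stretches shared with another gene, for 76 structural subunits coloured by complex. Subunits with over 60 percent shared lie low, at 270 or less, while Sdhd and Cox7a2 are also low and share none.

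Promoters of the members were searched for 5 short motifs on both strands, in windows from 250 bases before to 50 after each start in RefSeq (GRCm38.p6). Such windows exist for 77 of the 100 members. The letters GCGCATG, part of the NRF1 site, occurred in 15 of the 77 (19.5%), against 8.39% of 9352 genes tested with a window and 3.91% of all 32851 windows. The ETS motif CCGGAAG occurred in 24.7% of members against 21% of genes tested and 8.86% of all windows, and the YY1 motif AAGATGG in 15.6% against 8.52% and 6.34%. The E-box CACGTG, the form bound by CLOCK-BMAL1, occurred in 7.79% against 12.1% and 7.15%. The core TAGGTCA of the element bound by NR1D and ROR receptors occurred in 3 members (3.9%), against 2.21% and 2.61%. Matches of different motifs overlapped in 15 of all windows and in 0 windows of members.

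Windows are shown for the called subunits Atp5pb and Atp5g3, for Cox6a1 as the general isoform with an NRF1 match read on both strands, and for Ndufb10 and Cox7b, which hold the receptor core. Ndufa11 also holds this core and its window is not shown. The choice was made after values were seen. Each is given 5′ to 3′ on the strand of its gene, with the matches in capitals. Atp5pb lies at chr3:105959214-105959513 (minus strand; E-box, then YY1 on the other strand), Atp5g3 at chr2:73911277-73911576 (minus strand; E-box), Cox6a1 at chr5:115348909-115349208 (minus strand; NRF1, then ETS on the other strand), Ndufb10 at chr17:24724374-24724673 (minus strand) and Cox7b at chrX:106015450-106015749 (plus strand). The Atp5g3 window lies inside the gene span given above, so it belongs to a start within that span and not to its outer end.
Atp5pb: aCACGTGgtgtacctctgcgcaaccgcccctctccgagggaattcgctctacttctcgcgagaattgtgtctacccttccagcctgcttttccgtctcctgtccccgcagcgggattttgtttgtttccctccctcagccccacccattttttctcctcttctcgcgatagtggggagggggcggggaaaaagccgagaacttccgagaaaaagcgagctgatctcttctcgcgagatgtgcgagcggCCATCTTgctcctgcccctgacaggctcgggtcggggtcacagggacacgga
Atp5g3: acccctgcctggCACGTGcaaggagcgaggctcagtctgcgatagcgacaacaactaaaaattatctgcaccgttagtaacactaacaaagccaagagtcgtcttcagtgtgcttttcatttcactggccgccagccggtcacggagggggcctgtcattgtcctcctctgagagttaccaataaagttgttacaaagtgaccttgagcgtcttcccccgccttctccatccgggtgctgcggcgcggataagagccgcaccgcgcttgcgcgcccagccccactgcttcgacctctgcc
Cox6a1: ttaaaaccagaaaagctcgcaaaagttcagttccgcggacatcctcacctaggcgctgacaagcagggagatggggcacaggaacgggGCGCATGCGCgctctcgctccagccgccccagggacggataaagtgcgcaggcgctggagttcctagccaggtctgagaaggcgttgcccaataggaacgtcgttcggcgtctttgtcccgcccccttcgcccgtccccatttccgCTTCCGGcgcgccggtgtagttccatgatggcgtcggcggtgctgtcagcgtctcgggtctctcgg
Ndufb10: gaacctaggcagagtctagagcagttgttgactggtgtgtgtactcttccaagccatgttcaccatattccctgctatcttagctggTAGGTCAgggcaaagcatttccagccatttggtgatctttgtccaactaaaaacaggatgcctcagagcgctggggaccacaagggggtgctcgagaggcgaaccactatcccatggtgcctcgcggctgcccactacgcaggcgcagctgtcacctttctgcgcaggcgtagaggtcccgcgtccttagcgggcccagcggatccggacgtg
Cox7b: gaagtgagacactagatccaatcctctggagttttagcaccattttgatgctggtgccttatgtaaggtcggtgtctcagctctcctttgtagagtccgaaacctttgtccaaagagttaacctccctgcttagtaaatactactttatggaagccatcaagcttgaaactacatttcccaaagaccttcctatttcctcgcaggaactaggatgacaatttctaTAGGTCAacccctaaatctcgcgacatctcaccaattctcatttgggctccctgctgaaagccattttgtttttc

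Of the 3 members with the receptor core, Ndufb10, an accessory subunit of complex I, had 4509 and 4681 normalized counts in the Cry/Per_KO-labelled pair, 7036 and 6551 in the Cry/Per/Nr1d_KO-labelled pair, and 6274 and 6652 in Per/Nr1d_KO. Cox7b, a small subunit of complex IV, had 4952 and 5373, 7612 and 7489, and 6676 and 6716 line by line. Both were lower in the Cry/Per_KO-labelled pair than in the Cry/Per/Nr1d_KO-labelled pair, by -0.56 ± 0.05 (adjusted p = 1.0e-07) and -0.55 ± 0.05 (adjusted p = 7.6e-08). This direction would turn if the labels of these pairs were exchanged. Ndufa11, the third, had -0.15 ± 0.07 (adjusted p = 0.067), with 2376 and 2558 against 2942 and 2519. It passed the test without replicate 2 of the Cry/Per_KO-labelled pair (-0.20) or of the Cry/Per/Nr1d_KO-labelled pair (-0.25), and was at -0.03 without replicate 1 of the latter. A match is a description of these windows and not a bound site.

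The subunits encoded by mitochondrial DNA were mostly lower in Per/Nr1d_KO than in the other lines. Of the 13 protein-coding genes, 8 passed the filter, and 7 of these were lower and none higher in Per/Nr1d_KO than in the Cry/Per/Nr1d_KO-labelled pair at the adjusted p alone, 5 of them past the limit on the fold, with a median of -0.86, where 37.1% of all genes were lower and 9.35% were lower past the limit. The nuclear subunits tested had a median of 0.12 in this comparison. Against the Cry/Per_KO-labelled pair, 1 was higher and 5 lower, 2 of the latter past the limit on the fold, with a median of -0.51 beside 0.24 for the nuclear subunits, where 39.3% of all genes were lower and 13.8% were lower past the limit. Between the labelled pairs, 1 was higher and 6 lower in the Cry/Per_KO-labelled pair, with a median of -0.38 beside -0.13, where 38.3% of all genes were lower. ND1, a core subunit of complex I, had 424198 and 370647 normalized counts in the Cry/Per_KO-labelled pair, 600381 and 781745 in the Cry/Per/Nr1d_KO-labelled pair, and 298643 and 250946 in Per/Nr1d_KO. ND2 had 309241 and 263422, 317767 and 420495, and 127235 and 106806 line by line, and was lower in Per/Nr1d_KO by -1.66 ± 0.11 against the Cry/Per/Nr1d_KO-labelled pair (adjusted p = 2.0e-09). CYTB, the mitochondrial subunit of complex III, had -0.88 ± 0.08 (adjusted p = 8.4e-08) and ND4 -0.84 ± 0.09 (adjusted p = 3.2e-07), both just past the limit on the fold. CYTB had 428390 and 521518 normalized counts in the Cry/Per/Nr1d_KO-labelled pair against 270200 and 244280 in Per/Nr1d_KO. ND4 had 158996 and 201069 against 107684 and 94081. By these counts neither passes the limit without replicate 2 of the labelled pair, so the count of 5 rests on that library. In the same comparison ND3 had -1.47 ± 0.24, with 117 and 114 normalized counts against 33.0 and 47.3. It had 206 and 137 in the Cry/Per_KO-labelled pair and fell below the filter without replicate 1 of that pair. The 8 genes tested, and the 5 and 2 past the limit on the fold, include ND3, which passed the filter only with that library. COX1 of complex IV instead had 0.03 ± 0.09 against the Cry/Per/Nr1d_KO-labelled pair (adjusted p = 0.79). This value ranged from -0.14 to 0.22 when a library was left out. Against the Cry/Per_KO-labelled pair COX1 was higher in Per/Nr1d_KO, at 0.43 (adjusted p = 5.1e-04).

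Counts of mitochondrially encoded genes were 3.61 and 3.12 times those of the nuclear members in the Cry/Per_KO-labelled pair, 3.53 and 4.84 times in the Cry/Per/Nr1d_KO-labelled pair, and 2.74 and 2.25 times in Per/Nr1d_KO. The libraries labelled Cry/Per/Nr1d_KO differed between themselves by more than those of the other lines. These ratios rest on part of the mitochondrial genes, since COX2, COX3, ATP6, ATP8 and ND4L had at most 0.888 normalized counts in any library, and 98.8% or more of the 50-base stretches of all of these except ATP8 occur in other genes. ND3, with 98% shared, had between 33.0 and 206 normalized counts, and was the only one of the 8 tested under 51846.

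The regulators of mitochondrial genes that were called belong to the PGC-1 coactivator family. Of 16 tested, 1 was called in the comparison of the labelled pairs, 1 in Per/Nr1d_KO against the Cry/Per/Nr1d_KO-labelled pair, and 2 against the Cry/Per_KO-labelled pair, beside 16.8%, 20.7% and 29.0% of all genes. Ppargc1b (PGC-1beta), a coactivator of mitochondrial biogenesis, had 170 and 197 normalized counts in the Cry/Per_KO-labelled pair, 414 and 425 in the Cry/Per/Nr1d_KO-labelled pair, and 39.3 and 20.5 in Per/Nr1d_KO. It was lower in Per/Nr1d_KO by -3.90 ± 0.19 and -2.72 ± 0.21 against the labelled pairs (adjusted p = 3.5e-11 against Cry/Per/Nr1d_KO and 1.1e-08 against Cry/Per_KO). Its relative Ppargc1a (PGC-1alpha) was below the filter, with 66.8 and 32.4, 79.9 and 64.4, and 5.07 and 8.68 normalized counts line by line, so that Per/Nr1d_KO was again lowest. Pprc1, the third of the family, went the other way, with 8754 and 8895, 13707 and 13317, and 16943 and 16216 normalized counts and a log2 fold change of 0.91 ± 0.04 in Per/Nr1d_KO against the Cry/Per_KO-labelled pair (adjusted p = 2.2e-11). Nrf1 had between 3937 and 4676 normalized counts over the libraries, and Tfam, which packages and transcribes mitochondrial DNA, between 4445 and 6192.

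Among 37 tested assembly factors named outside the rule, 1, 2 and 6 were called in the 3 comparisons, where 16.8%, 20.7% and 29.0% of all genes were. Cox18, which inserts a mitochondrially encoded subunit of complex IV into the membrane, was highest in Per/Nr1d_KO, with 2787 and 2843 normalized counts against 1338 and 1345 in the Cry/Per_KO-labelled pair and 1020 and 992 in the Cry/Per/Nr1d_KO-labelled pair. Sdhaf4, an assembly factor of complex II, was called beside it in Per/Nr1d_KO against the Cry/Per/Nr1d_KO-labelled pair, at 0.89 ± 0.10 (adjusted p = 8.7e-07). Nubpl, which delivers iron-sulphur centres to complex I, was called in the comparison of the labelled pairs, at 1.08 ± 0.10 (adjusted p = 1.9e-07). In Per/Nr1d_KO against the Cry/Per_KO-labelled pair, Cox14, Uqcc3 and Tmem70 were called as higher beside Cox18, at 0.92, 0.98 and 0.87, and Coa3 and Foxred1 as lower, at -0.82 and -0.83. The last 2 lay just past the limit on the fold. By their normalized counts, Coa3 is inside it without replicate 2 of the Cry/Per_KO-labelled pair or of Per/Nr1d_KO, and Foxred1 without replicate 1 of Per/Nr1d_KO. Sdhaf4 is at the limit without replicate 2 of Per/Nr1d_KO.

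Among 14 tested electron carriers and related enzymes, Pdss1, which makes the side chain of ubiquinone, had -1.13 ± 0.08 between the Cry/Per_KO-labelled and Cry/Per/Nr1d_KO-labelled pairs (adjusted p = 3.7e-09) and 0.92 in Per/Nr1d_KO against the Cry/Per_KO-labelled pair, where Etfa, an electron transfer flavoprotein on chromosome 9, had -0.89. Cycs, cytochrome c, had between 218 and 252 normalized counts in every library, and 28.5% of its 50-base stretches are shared. Of 14 tricarboxylic acid cycle genes, Idh3a on chromosome 9 fell in Per/Nr1d_KO, from 14199 and 14836 in the Cry/Per_KO-labelled pair and 14660 and 14250 in the Cry/Per/Nr1d_KO-labelled pair to 6155 and 6409 normalized counts. Fh1, fumarase on chromosome 1, had 0.89 ± 0.05 in Per/Nr1d_KO against the Cry/Per_KO-labelled pair (adjusted p = 1.9e-10), and the remaining genes of this list were not called. Chromosome 9 had a median of -0.84 in this comparison. In each list of 14, 1 gene was called as higher and 1 as lower there, beside 29.0% of all genes. Between the labelled pairs 1 carrier and no cycle gene was called, beside 16.8% of all genes. In Per/Nr1d_KO against the Cry/Per/Nr1d_KO-labelled pair 1 cycle gene and no carrier was called, beside 20.7%.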

How the data were processed

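Stranded poly-A libraries, 2 for each of 3 cell lines, were sequenced single-end to 50 bases. The authors used STAR for mapping to mm10 and featureCounts for counting, and the deposited counts are raw whole numbers listed by Entrez Gene ID. The strand setting and the treatment of reads that map to several places are not given in the sources used here. DESeq2 1.22.2 tables of the authors' fold changes and p-values were not used.

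Symbols came from RefSeq (GRCm38.p6, the assembly of mm10) and matched 25275 of 27179 IDs (93.0%). Of 115 RefSeq genes that fit the rule, 15 were not in the table, namely 14 pseudogenes and Ndufb1. Gene coordinates also came from RefSeq, while transcript lengths and shared stretches came from GENCODE vM21 (GRCm38). The members and lists were chosen with earlier results of these data known. Values in every library were given for members called in any comparison, for the member of each complex with the widest change in a comparison or the highest level per kilobase, for isoforms with a mean of at least 10, and for the 5 members farthest from their chromosome, but only a range for Ndufa7, Cox4i1, Uqcrh and Ndufa4l2. Of the pathway lists, called genes, Ppargc1a, Nrf1, Tfam and Cycs were named, and Ndufb10, Cox7b, Ndufa11 and other members were added after their values were seen. Motif letters were chosen likewise, and a longer form of the NRF1 motif, searched first, was replaced by the shorter one given here.

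Counts were scaled by TMM and tested in R 4.3.3 with edgeR 4.0.16 (quasi-likelihood, all 6 libraries, 3 groups, Benjamini-Hochberg adjustment). The standard error is the log2 fold change divided by the square root of F. Library totals were 53764390 to 85927236, and the common biological coefficient of variation was 0.0393. Standard errors include the spread between libraries as estimated by the fit, while the floor of up to 3 counts for a gene with none covers counting error only. Shared stretches are 50-base words of a gene's shortest RefSeq-matched transcript that occur in another gene of GENCODE. Alternatives were median-of-ratios size factors, DESeq2 1.42.0, a mean of at least 10, no filter, a replicate block, glmTreat, structural subunits alone and leaving out each library. The fit was tested on simulated data. Same-numbered libraries deviated together with a correlation of -0.188, -0.02 and -0.0843 between the lines, so the numbers were not taken to pair them.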

Additional observations from a re-analysis of the deposited data

How the results depend on the processing

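Of 70 log2 fold changes of 49 named genes, 769 values were computed under 11 alternatives. Of these, 751 kept their direction and their side of the threshold on the adjusted p, 10 fell short of it, 6 passed it and 2 turned their sign. The sign changes were those of COX1 in Per/Nr1d_KO against the Cry/Per/Nr1d_KO-labelled pair, at -0.14 and -0.08 without replicate 1 of either line, within a range up to 0.22. The cause was not tested. With a replicate block the members called stayed at 3, 1 and 6, those past the adjusted p were 54, 56 and 57, and none of the 70 calls changed.

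The count of called members rose from 3 to 5 between the Cry/Per_KO-labelled and Cry/Per/Nr1d_KO-labelled pairs with a mean of at least 10 or with no filter, both times by Cox7a1 and Cox7a2, since more genes were tested. It ranged from 3 to 4 when a library was left out. Without replicate 1 of either labelled pair Atp5g3 was lost and Ndufaf3 gained, and without replicate 2 of Cry/Per_KO Atp5g1 was gained. DESeq2 lost Atp5g3. Between Per/Nr1d_KO and the Cry/Per/Nr1d_KO-labelled pair it rose from 1 to 2 with size factors or DESeq2, by Atp5a1, to 4 with a mean of at least 10, by Cox6b2, Ndufb4c and Sdhd, all of low counts, and to 3 with no filter. It was 0 among structural subunits alone, because Cox6a2 is an isoform, and 1 to 2 when a library was left out, by Atp5a1, Ndufa12 or Ndufs4. Between Per/Nr1d_KO and the Cry/Per_KO-labelled pair it ranged from 5 to 7 when a library was left out, by the loss of Atp5g3 or the gain of Atp5e, and reached 9 without the filter, and glmTreat left 2, 1 and 4 in the 3 comparisons.

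The median log2 fold change of members ranged from -0.19 to -0.09, from 0.03 to 0.12 and from 0.13 to 0.21 when a library was left out. It was 0.12 and 0.24 in the comparisons of Per/Nr1d_KO for structural subunits alone, and 0.12 against the Cry/Per_KO-labelled pair with a mean of at least 10. The SD around the chromosome went from 0.254 to 0.293 with a mean of at least 10 and to 0.490 with no filter in the comparison of the labelled pairs, and to 0.502 with no filter in Per/Nr1d_KO against the Cry/Per_KO-labelled pair, where genes of very low counts entered. With 2 libraries a line, a left-out library leaves a lone one that is assumed to vary like the others.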

Other observations

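Among the pseudogenes and gene copies that match the rule, 4 were tested. Ndufs5-ps had 923 and 684 normalized counts in the Cry/Per_KO-labelled pair, 840 and 1059 in the Cry/Per/Nr1d_KO-labelled pair, and 786 and 604 in Per/Nr1d_KO, which is above Ndufs5 itself, at 375 and 359, 416 and 354, and 430 and 496. The normalized counts of Uqcrh-ps1 were 608 and 457, 780 and 775, and 526 and 574 line by line, and those of Atp5c1-ps 459 and 536, 644 and 577, and 488 and 522. At the adjusted p alone, 3 of the 4 changed between the labelled pairs, 4 in Per/Nr1d_KO against the Cry/Per/Nr1d_KO-labelled pair and 0 against the Cry/Per_KO-labelled pair, beside 76.4%, 75.8% and 82.1% of all genes tested. Of the 50-base stretches of Uqcrh-ps1, 18.3% occur in other genes, mostly in Uqcrh, and of those of Atp5c1-ps 7.22%, mostly in Gm8722. How such reads were assigned was not tested.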
